A study of Saccharomyces cerevisiae with 6 samples.

Results

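The genes described here are 9 budding yeast genes, ASH1 and 8 genes of daughter-cell separation (CTS1, DSE1, DSE2, DSE4, EGT2, SCW11, AMN1 and PRY3). They were chosen by name: a probe set belongs to them when the platform annotation gives it that single gene name. The list was made with earlier results of these data known. Counts of members set beside all tested probe sets are therefore a description and not independent support. Each of the 9 genes matched 1 probe set, and all 9 passed the filter on low signals, out of 5173 genes with a tested and named probe set. Cultures of Saccharomyces cerevisiae received azinomycin B, a DNA cross-linking agent, in a little ethanol for 6 h, and the study set doses of 100 and 10 µg/ml against control growth. The arrays form 3 groups. They are 100 µg/ml (2 arrays, named A100 and B100), 10 µg/ml (1 array, named 10) and untreated control (3 arrays, 1 for each of these names). Before the 6 h began, all cultures had reached an optical density of 1.0 in rich YPD medium, shaken at 250 rpm and kept at 30 °C. The labels name no strain and mention no ethanol in the controls. Whether each array had a culture of its own is not stated, and p-values therefore measure only the spread between these arrays, which may be technical.

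In budding yeast the mother and the daughter stay joined by a septum after cytokinesis, and they come apart when the daughter digests it from its own side. The RAM signalling network is needed for the daughter's secreted wall-degrading enzymes, which are made as cells pass from mitosis into G1. The transcription factor Swi5 acts on genes of the same window. ASH1 encodes a repressor of HO, and its mRNA is carried into the bud tip by a myosin, so that the protein gathers in daughters and mating-type switching is kept to mothers. These transcripts peak in a short window of the cell cycle. In a whole culture, fewer cells in that window and less RNA per cell cannot be told apart.

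All 9 transcripts were measured as MAS5 signals, linear brightness values per probe set, and differences are on the scale log2(signal + 16), always treated minus control. Most members were lower on the A100 array at 100 µg/ml, fewer were lower on the B100 array, and the 10 µg/ml array showed another pattern. In the A100 pair 8 of 9 members were lower and 1 higher than the control of the same label, where 48.2% of the 6956 tested probe sets were lower and 51.6% higher, and 4 of them (ASH1, PRY3, EGT2 and DSE1) were at least 2-fold lower, where 6.12% of all tested probe sets were. In the B100 pair 5 of 9 were lower and 4 higher, beside 43.2% and 56.7% of all tested probe sets, and 0 reached 2-fold lower, beside 0.661%. In the 10 pair 3 of 9 were lower and 6 higher, beside 42.1% and 57.9%, and 1 (DSE1) was at least 2-fold lower, beside 2.4%. The median difference of the 9 members was -0.79 for A100, -0.12 for B100 and 0.063 for the 10 pair, beside 0.029, 0.058 and 0.082 over all tested probe sets. In limma's test across all probe sets no member passed at 100 µg/ml (adjusted p = 0.957 to 0.982) or at 10 µg/ml (adjusted p = 0.761 to 0.990). That fit takes all controls as a single group. The control of the 10 pair had r = 0.903 and 0.910 with the A100 and B100 controls. Those controls had r = 0.980 with each other. The gap between controls is part of the spread in that test, and it enters the fold changes over all controls at 10 µg/ml. The share called over all tested probe sets was 0% at each dose, with 232 and 291 probe sets (3.34% and 4.18%) at an unadjusted p under 0.05. Among the members PRY3 at 100 µg/ml and DSE1 at 10 µg/ml had an unadjusted p under 0.05. Every value below is therefore a description of these arrays.

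**Figure D1:**
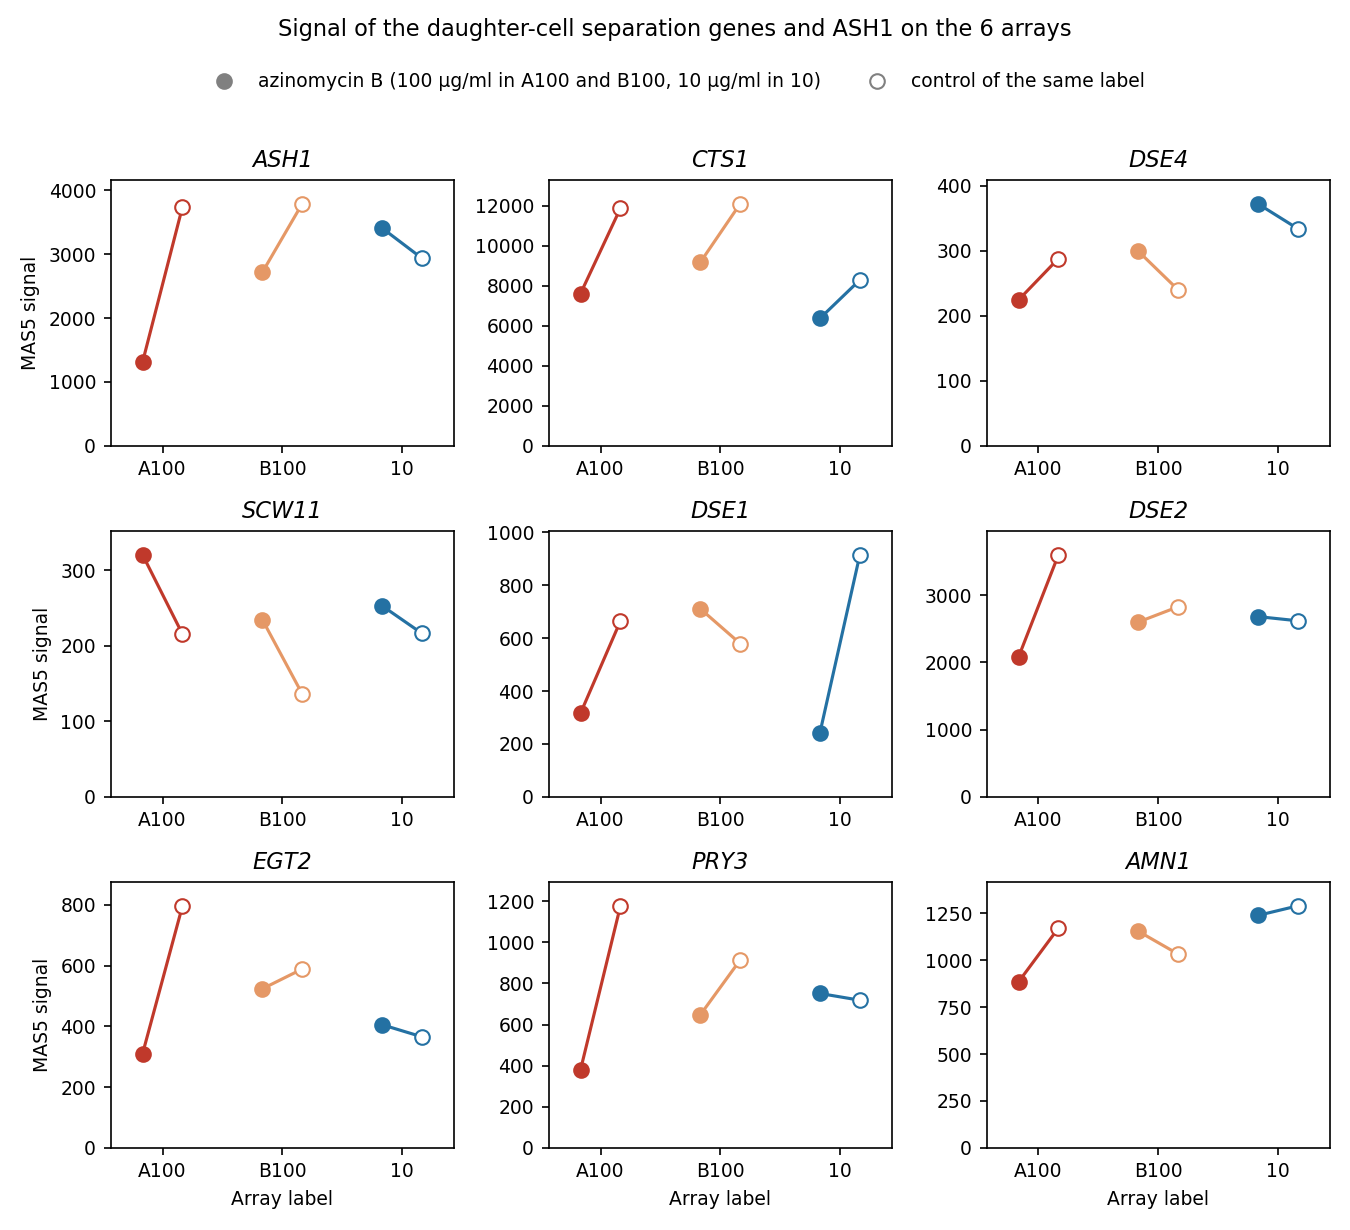
MAS5 signal (linear, axis from 0) of each of the 9 genes on the 6 arrays; filled points are azinomycin B arrays, open points the control of the same label, and lines join the 2. ASH1, CTS1, DSE2, EGT2 and PRY3 lie below the control in both 100 µg/ml pairs, SCW11 lies above it in all 3 pairs, and DSE1 is lower in the A100 and 10 pairs.

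ASH1 (YKL185W), the daughter-specific repressor of HO, had signals of 1313 and 2717 on the A100 and B100 arrays at 100 µg/ml, against 3744, 3792 and 2939 on the A100, B100 and 10 controls. Both 100 µg/ml arrays lay below all 3 controls, and the groups did not overlap. This was so for 3 of 9 members, ASH1, DSE2 and PRY3, and for 7.58% of all tested probe sets. The A100 and B100 controls differed by -0.018 (log2, A100 minus B100) and the 2 treated arrays by -1.04, so the 100 µg/ml arrays were less alike than their controls. The differences within the pairs were -1.50 and -0.48, and 2.42% and 5.99% of tested probe sets were lower still. On the 10 µg/ml array ASH1 had a signal of 3413, against 2939 in its own control, a difference of 0.21, and it lay between the lowest and the highest control. The log2 fold change at 100 µg/ml over all 3 controls was -0.87 (SE 0.362, limma adjusted p = 0.957), and -0.99 (SE 0.377) against the A100 and B100 controls alone. Without the treated A100 array it was -0.35, and without the treated B100 array -1.39.

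Of the enzymes that act on the wall, CTS1 (YLR286C), the endochitinase that digests the chitin of the primary septum, gave signals of 7617 and 9176 at 100 µg/ml, 6374 at 10 µg/ml, and 11885, 12105 and 8296 on the A100, B100 and 10 controls. It was the only member lower in all 3 pairs (log2 differences of -0.64, -0.40 and -0.38), where 12.2% of all tested probe sets were lower in all 3. The control of the 10 pair lay below the mean of the A100 and B100 controls (a log2 difference of -0.53), so the treated B100 array was above that control while below its own. The log2 fold change was -0.34 (SE 0.261) at 100 µg/ml and -0.73 (SE 0.330) at 10 µg/ml, with limma adjusted p = 0.957 and 0.761. At 100 µg/ml it was -0.21 without the treated A100 array, -0.52 without the control of the 10 pair and -0.14 after quantile normalization. At 10 µg/ml it was -0.44 after quantile normalization.

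DSE4 (YNR067C), an endo-glucanase also called ENG1 that acts with the chitinase, had 224 and 299 with 100 µg/ml and 372 with 10 µg/ml, against 288, 240 and 334 on the controls. Treated and control signals overlapped, and the pairs went different ways (-0.34, 0.30 and 0.15). Its log2 fold change at 100 µg/ml, -0.13 (SE 0.289), was the smallest in size among the members, and without the treated A100 array it was 0.068. It was -0.32 without the treated B100 array, -0.24 without the B100 control or after quantile normalization, and -0.019 without the control of the 10 pair.

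SCW11 (YGL028C), a wall protein that resembles glucanases, was above its control in every pair. Its signals were 320 and 235 with 100 µg/ml and 253 with 10 µg/ml, against 215, 136 and 216 on the A100, B100 and 10 controls. All 3 treated arrays lay above all 3 controls, and SCW11 was the only member for which this holds, beside 6.04% of all tested probe sets. Both 100 µg/ml arrays were above all controls at 12.3% of the tested probe sets, 34.1% were higher in both 100 µg/ml pairs, and 22% were higher in all 3 pairs. The pair differences were 0.54, 0.72 and 0.21, and in the B100 pair 354 of 6956 tested probe sets had a higher one. The A100 and B100 controls themselves differed by 0.60, which is more than the A100 pair. The log2 fold change at 100 µg/ml was 0.53 (SE 0.321, limma adjusted p = 0.957), 0.31 without the treated A100 array and 0.32 without the B100 control.

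DSE2 (YHR143W), a secreted protein made in daughters and related to glucanases, had 2080 and 2601 with 100 µg/ml and 2683 with 10 µg/ml, against 3602, 2829 and 2620 on the controls. Both 100 µg/ml arrays were below all controls, but B100 only by a small margin from the 10 control. Its pair differences were -0.79, -0.12 and 0.034, and the A100 and B100 controls differed by 0.35, more than the B100 pair.

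DSE1 (YER124C), a daughter-specific protein with a part in wall metabolism, had the lowest single difference of all members. On the 10 µg/ml array its signal was 242.5, against 915.3 in the control of the same label, a log2 difference of -1.85 or 3.60 times lower. Among the 6956 tested probe sets only 8 had a lower difference in that pair. In the A100 pair the signals were 316.4 treated and 665.2 control (-1.04), and in the B100 pair 711.5 treated and 579.7 control (0.29). DSE1 was thus low on 2 of the 3 treated arrays and near its controls on the other. The log2 fold change was -1.48 (SE 0.524) at 10 µg/ml and -0.56 (SE 0.414) at 100 µg/ml, with limma adjusted p = 0.761 and 0.957. Without the treated A100 array the value at 100 µg/ml was 0.0090, and without the treated B100 array -1.12.

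EGT2 (YNL327W), a wall protein needed for cell separation and expressed in early G1, had 310 and 524 with 100 µg/ml and 406 with 10 µg/ml, against 797, 589 and 366 on the A100, B100 and 10 controls. Against the controls of the same label both 100 µg/ml arrays were lower (-1.32 and -0.16), but B100 lay above the control of the 10 pair. That control lay below the mean of the other controls (a log2 difference of -0.88), the widest such gap among the members. The log2 fold change at 100 µg/ml was -0.45 (SE 0.416) over all controls and -0.74 (SE 0.335) against the A100 and B100 controls alone. Without the treated A100 array it was -0.086, without the treated B100 array -0.81 and without the A100 control -0.20.

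PRY3 (YJL078C), a wall-anchored protein of the CAP family, had 380.3 and 646.7 with 100 µg/ml and 751.1 with 10 µg/ml, against 1178, 913.8 and 718.3 on the A100, B100 and 10 controls. Its pair differences, -1.59, -0.49 and 0.063, were close to those of ASH1. In the A100 pair 139 of the 6956 tested probe sets had a lower difference. Over the 6 arrays PRY3 correlated with DSE2 at r = 0.97 and with ASH1 at r = 0.94, while ASH1 and SCW11 correlated at r = -0.74, as a description of arrays that share the low treated A100 array. The log2 fold change at 100 µg/ml was -0.87 (SE 0.357, limma adjusted p = 0.957), and it was -1.04 (SE 0.330) against the A100 and B100 controls alone. Without the treated A100 array it was -0.50.

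AMN1 (YBR158W), a daughter-specific inhibitor of the mitotic exit network, varied least. Its signals were 885 and 1155 with 100 µg/ml and 1239 with 10 µg/ml, against 1172, 1033 and 1290 on the controls. The highest of the 6 signals was 1.46 times the lowest, where the ratio was 3.77 for DSE1. The pair differences were -0.40, 0.16 and -0.058, and treated and control signals overlapped.

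**Figure D2:**
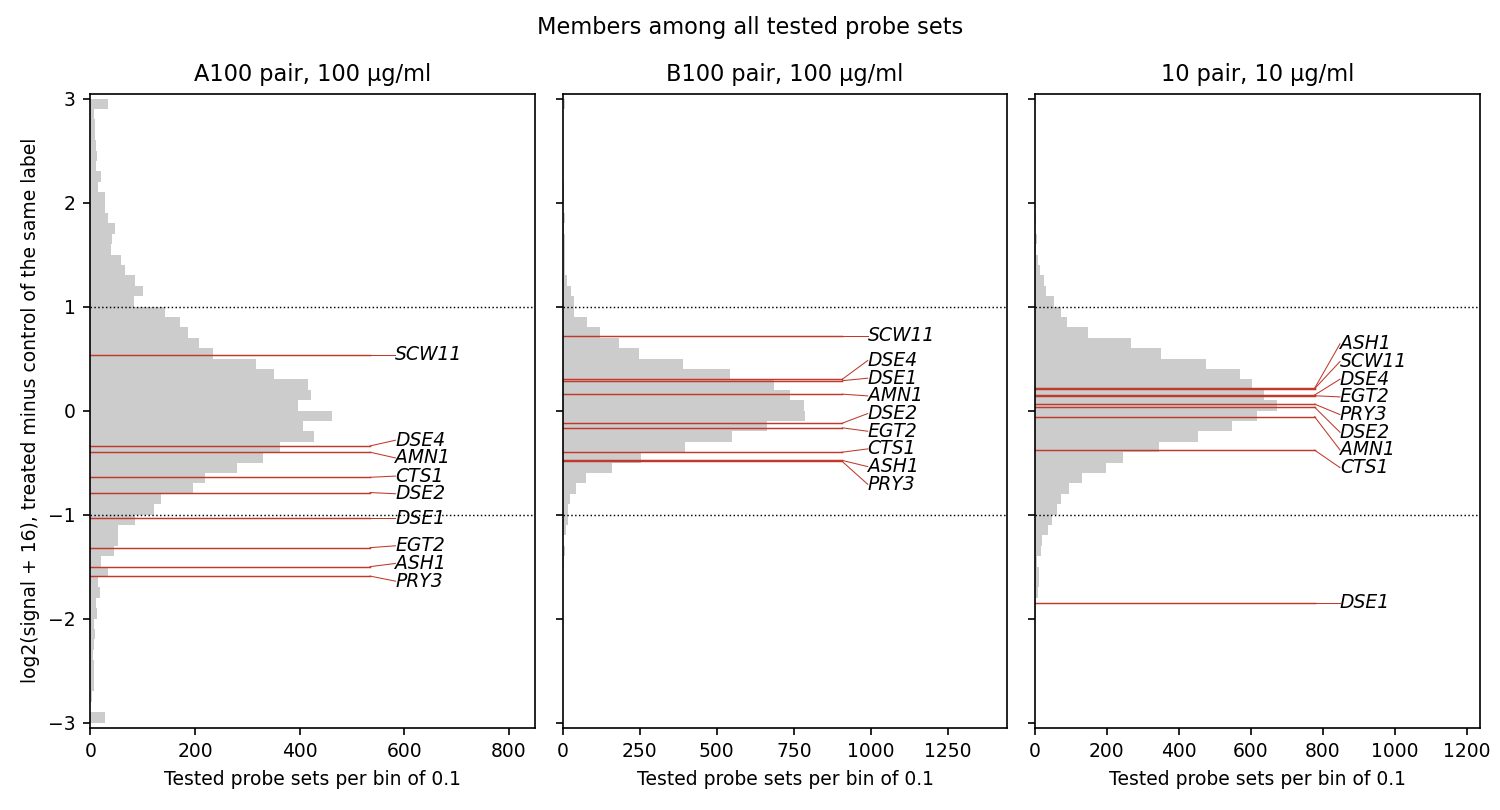
Log2(signal + 16) of the treated array minus the control of the same label, for the 3 pairs; grey bars count the 6956 tested probe sets per bin of 0.1, with values beyond 3 placed in the end bins, dotted lines mark 2-fold, and red lines mark the 9 genes. In the A100 pair 8 genes lie below 0, in the B100 pair 5, and in the 10 pair 3, with DSE1 at -1.85.

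The A100 pair was the more negative one for all 9 members, SCW11 included. On 8 of 9 (all but SCW11) the treated A100 signal was also below the treated B100 signal. The A100 pair difference was larger in size than the gap between the A100 and B100 controls for 8 of 9, and the B100 pair difference for 6 of 9. The shares of all tested probe sets were not taken for the counts so far in this paragraph. These counts therefore cannot be read as a trait of the members. Lower in both 100 µg/ml pairs were 5 of 9 (ASH1, CTS1, DSE2, EGT2 and PRY3), where 25.6% of all tested probe sets were. All of these but CTS1 were higher in the 10 pair, a pattern that 13.4% of tested probe sets had. These 5 were also the ones with both 100 µg/ml arrays below the A100 and B100 controls, where 18.5% of tested probe sets were. The treated A100 array stood apart in general. It correlated with its own control at r = 0.906, beside 0.979 for the B100 pair and 0.970 for the 10 pair, and 426 probe sets were at least 2-fold lower in the A100 pair, beside 46 in B100 and 167 in the 10 pair. For ACT1, whose 3' over 5' signal ratio is higher in degraded RNA, that ratio was 2.09 and 1.44 on the A100 and B100 treated arrays and 1.78 on the 10 µg/ml array, against 1.69, 2.05 and 1.85 on the controls. The part of these features in the member values was not tested.

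In the fit on all 3 controls, 8 of 9 members were negative at the higher dose, and the median log2 fold change was -0.36, beside 0.052 over all tested probe sets, of which 43.8% were negative. Without the treated A100 array 6 of 9 were negative and the median was -0.086. Without the treated B100 array 8 of 9 were negative and the median was -0.52. At 10 µg/ml 6 of 9 were negative over all 3 controls with a median of -0.16, and 3 of 9 against the control of the same label with a median of 0.063. The control of the 10 pair lay below the mean of the A100 and B100 controls for ASH1, CTS1, DSE2, EGT2 and PRY3, with log2 differences of -0.28 to -0.88, and above it for DSE1, DSE4, SCW11 and AMN1, with differences of 0.23 to 0.55.

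Other genes known for expression between mitosis and G1 lay on both sides of their controls. Of 15 listed, 14 were tested, and in the A100 pair 8 were higher and 6 lower, with a median of 0.14. In the B100 pair 8 were higher and 6 lower, with a median of 0.086, and in the 10 pair 5 were higher and 9 lower, with a median of -0.11. Of all tested probe sets 51.6%, 56.7% and 57.9% were higher in the A100, B100 and 10 pairs. RME1, a repressor of meiosis genes, had the lowest mean difference of the list, with signals of 1570 and 3247 with 100 µg/ml and 2495 with 10 µg/ml, against 3398, 3602 and 3770 on the controls (-1.11, -0.15 and -0.59). The bud site gene BUD9 (0.30, -0.33 and -1.12) and the wall protein gene HSP150 (-0.21, 0.43 and -1.58) were, like DSE1, lowest in the 10 pair. HSP150 had 3054 on the 10 µg/ml array and 9175 on its control. The cyclin gene PCL2 was higher in all pairs (0.81, 0.12 and 0.59). CDC6 was under the filter. Over the list 0 of 14 passed the test at either dose.

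Of the machinery upstream of these genes, SWI5 and CLB2 were under the filter on low signals (SWI5 had 67.2 and 42.6 with 100 µg/ml and 11.7 with 10 µg/ml, against 58.7, 14.0 and 9.0 on the controls). Of the RAM network, 7 genes were tested, with medians of 0.062, 0.11 and 0.20 in the A100, B100 and 10 pairs. MOB2, the partner of the kinase Cbk1, was at 1.65, 0.15 and 0.018, on a probe set whose suffix marks probes that related transcripts can share. The scaffold TAO3 was at -0.72, -0.47 and 0.075, the order seen for ASH1 and PRY3. KIC1, a kinase, was at 0.20, -0.18 and 0.46, and SOG2 at 0.062, 0.26 and -0.14. Of the mitotic regulators upstream of SWI5, 6 were tested, with medians of 0.24, 0.057 and 0.51. MCM1, a transcription factor of that group, had 456 and 961 with 100 µg/ml and 899 with 10 µg/ml, against 1056, 963 and 890 on the controls (-1.18, -0.0027 and 0.013), so only its A100 treated signal was apart. NDD1, a coactivator, was at -0.35, 0.67 and 0.89, FKH1 at 0.85, 0.32 and 0.034, and FKH2 at 0.23, 0.094 and 0.71. None passed the test.

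The mitotic exit network, which lets Swi5 enter the nucleus and which AMN1 restrains, had most of its genes above control in the A100 pair. Of 9 tested genes 8 were higher there, 6 in B100 and 7 in the 10 pair, beside 51.6%, 56.7% and 57.9% of all tested probe sets. The medians of the list were 0.59, 0.10 and 0.31. The kinase CDC15 had 188 and 60.2 with 100 µg/ml and 134 with 10 µg/ml, against 42.2, 55.1 and 33.3 on the controls (1.81, 0.10 and 1.60). The kinase DBF2 had 395 and 175 with 100 µg/ml and 195 with 10 µg/ml, against 123, 122.5 and 104 on the controls (1.56, 0.46 and 0.82). All 3 treated arrays were above all 3 controls for CDC15, DBF2 and DBF20, the paralog of DBF2 (0.82, 0.32 and 0.68), as for 6.04% of all tested probe sets. The phosphatase CDC14 was at 1.39, 0.24 and -0.068. At 100 µg/ml 4 of the 9 genes had both arrays above all controls, beside 12.3% of all tested probe sets. In limma's test 0 of 9 passed at either dose, with 1 at an unadjusted p under 0.05 at 100 µg/ml.

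Genes of the septum and cytokinesis were mostly above their controls in the A100 and B100 pairs. Of 12 tested genes 10 were higher in the A100 pair, 10 in B100 and 8 in the 10 pair. Of all tested probe sets 51.6%, 56.7% and 57.9% were higher in these pairs. The medians of the list were 0.40, 0.30 and 0.49. The chitin synthase CHS3 had 625 and 214 with 100 µg/ml and 337 with 10 µg/ml, against 160, 129 and 230 on the controls (1.86, 0.66 and 0.52). Its activator SKT5 was at 1.40, 0.43 and 0.93, the septin CDC3 at 0.73, 0.35 and 1.22, and CHS2, which makes the primary septum that CTS1 digests, at 1.05, 0.32 and 0.53. IQG1, a ring protein, was at -1.76, 0.29 and 0.41. Its probe set is 1 of those numbered 8000 to 8500, of which 11.0% were at least 2-fold lower in the A100 pair. MYO1 was under the filter, and 0 of 12 passed the test at either dose. The share of probe sets at least 2-fold lower in the A100 pair was 13.3% for numbers 7500 to 8000. It was 23.8% and 18.8% for numbers 2000 to 2500 and 2500 to 3000. The 9 genes' probe sets have other numbers. The part of probe set number in these values was not tested.

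Other wall enzymes and proteins, not known as daughter-specific and only in part of the same families as members, had medians of 0.29, -0.049 and 0.32 over 11 tested genes. SCW10, of the glucanase-like wall proteins, had 1729 and 262 with 100 µg/ml and 1600 with 10 µg/ml, against 230, 180 and 1089 on the controls (2.82, 0.50 and 0.55). The exoglucanases EXG1 (1.51, 0.59 and 0.54) and EXG2 (0.66, 0.19 and 0.77) were above the control in every pair. PRY2, of the same family as PRY3, was at 1.64, -0.12 and 0.22, opposite in sign to PRY3 in the A100 pair. The second chitinase gene, CTS2, was under the filter with signals of at most 28.4. None passed the test.

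Of 5 tested genes for the transport and repression of ASH1 mRNA 3 were higher in the A100 pair, 5 in B100 and 4 in the 10 pair. Of all tested probe sets 51.6%, 56.7% and 57.9% were higher in these pairs. The medians of the list were 0.11, 0.17 and 0.44. The myosin MYO4 had 288 and 156 with 100 µg/ml and 429 with 10 µg/ml, against 89.8, 137 and 377 on the controls (1.52, 0.17 and 0.18). LOC1, a nuclear factor for ASH1 mRNA, was at 0.91, 0.087 and 0.54, the translational repressor KHD1 at 0.11, 0.21 and 0.50, and the adaptor SHE3 at -0.10, 0.17 and 0.44. PUF6 was under the filter. HO, the gene that Ash1 represses, was also under it, with signals of 25.3 and 14.7 with 100 µg/ml and 20.1 with 10 µg/ml, against 31.6, 33.5 and 30.4 on the controls. None of these genes passed the test.

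**Figure D3:**
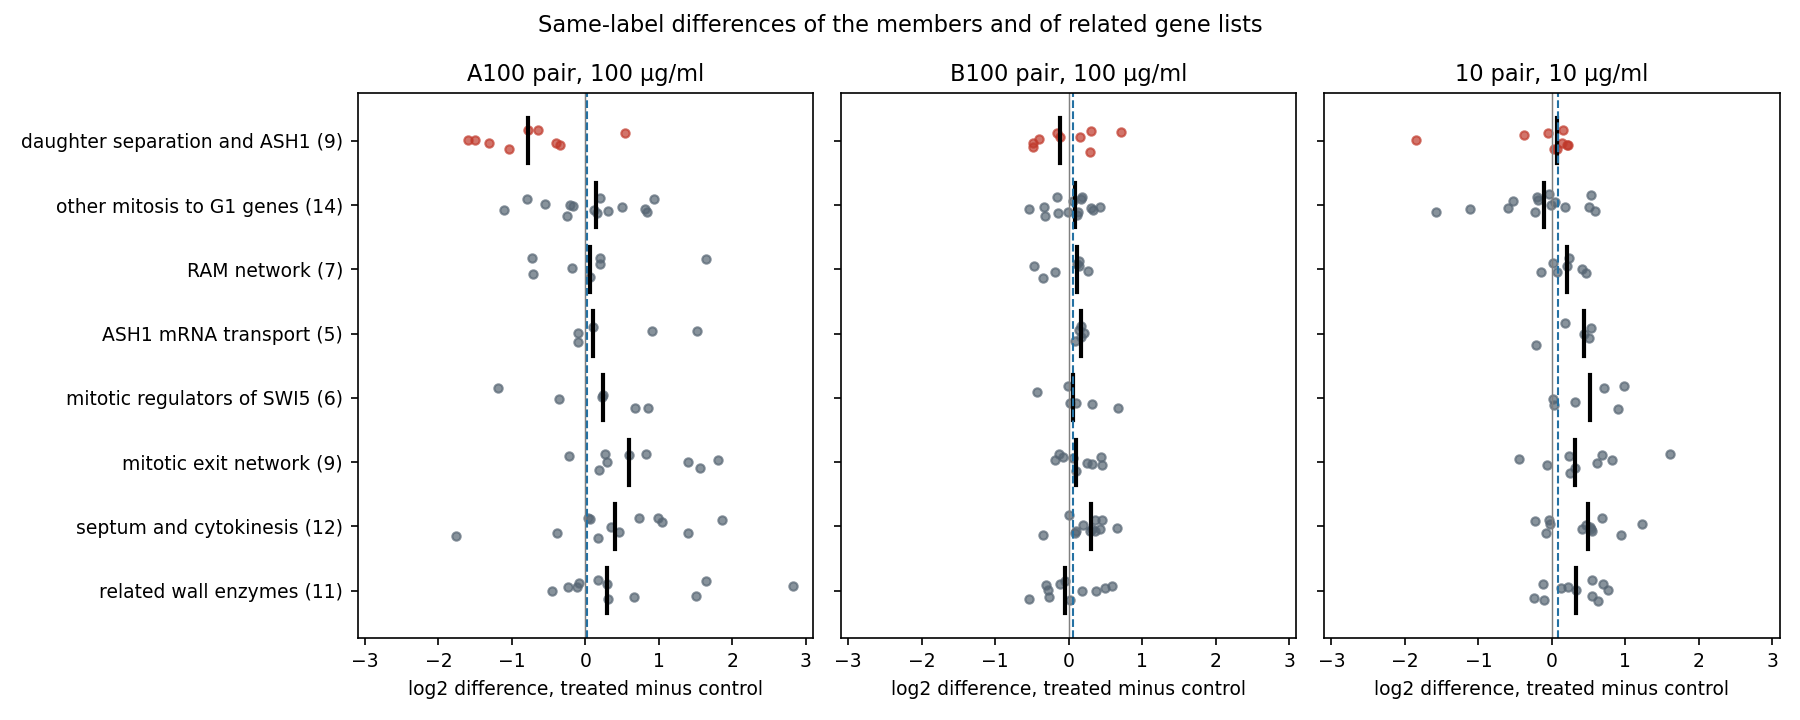
Log2 difference of treated minus control of the same label for each tested gene of the 9 (red) and of the related lists (grey, number of genes in brackets), with the list's median as a black bar and the median of all tested probe sets as a dashed line. The 9 genes have a median of -0.79 in the A100 pair, while the 7 related lists have medians from 0.062 to 0.59 there.

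Among 2875 named probe sets that varied by at least 1 (log2) over the 6 arrays, those most like the mean profile of the 8 separation genes were IXR1 (r = 0.99), PTK1 (r = 0.97), YTA12 (r = 0.96), AFG3 (r = 0.95) and YOR1 (r = 0.95). Among themselves the 8 genes correlated at r = -0.72 (CTS1 and SCW11) to r = 0.97 (DSE2 and PRY3). Their mean is therefore not a profile that all of them share. IXR1 encodes a DNA-binding protein known for binding cross-linked DNA, and YTA12 and AFG3 encode the 2 subunits of a mitochondrial protease. Those most like ASH1 were SFC1 (r = 0.99), PEX19 (r = 0.99), EAF3 (r = 0.99), DIP5 (r = 0.98) and IDS2 (r = 0.98). SFC1, the succinate-fumarate carrier, had 155.5 and 1300 with 100 µg/ml and 1832 with 10 µg/ml, against 2472, 3293 and 1757 on the controls. The probe sets of EAF3 and DIP5 are among those numbered 7500 to 8500, and that of YOR1 among those numbered 2000 to 2500. All of these values come from 6 arrays, and the treated A100 array is the lowest of the 6 for both profiles.

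Markers of mating type and sporulation were set beside these values. The summed signal of 4 alpha-cell markers (the pheromone genes MF(ALPHA)1 and MF(ALPHA)2, the receptor gene STE3 and the agglutinin gene SAG1) was 14202 and 11407 with 100 µg/ml and 14542 with 10 µg/ml, against 11863, 12849 and 16369 on the controls. That of 5 a-cell markers was 986 and 380 with 100 µg/ml and 611 with 10 µg/ml, against 287, 269 and 307 on the controls, with the receptor gene STE2 under the filter on low signals. The a-cell sum was above the controls on every treated array. MFA1 was at 3.98, 0.53 and 1.29 (log2) on a probe set that related transcripts can share, MFA2 at 0.79, 0.38 and 1.12, and BAR1 at 1.76, 0.72 and 0.81, while STE6 was at -0.028, 0.33 and -0.38. Of the alpha-cell markers, MF(ALPHA)2 was above its control in every pair (3.15, 1.14 and 0.89) and MF(ALPHA)1 and SAG1 were below theirs. Of 5 sporulation markers the sum was 812.5 and 2938 with 100 µg/ml and 1469 with 10 µg/ml, against 5149, 3810 and 1404 on the controls. SPS100, which gave 4494 of the 5149 on the A100 control, was at -4.18, -0.53 and 0.043. IME1 was at -0.30, 0.61 and 0.13, NDT80 at 0.38, -0.11 and 0.22, and IME2 at -0.26, -0.33 and 0.024, and SPO11 was under the filter. The part of these markers in the member values was not tested.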

How the data were processed

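Signals came from 6 one-colour Affymetrix arrays. The deposited values are intensity values, 1 per probe set on a linear scale, made by the authors with MAS5, per the submitters' processing notes; no version or scaling target is named in the labels. The 2% trimmed mean was 500.3 to 500.4 on every array and the median 111.5 to 142.9, so values were used as deposited. Of 9335 probe sets, 60 manufacturer controls and the 25% with the lowest mean log2(signal + 16) were left out, leaving 6956. Gene names come from the platform annotation, and locus tags from the RefSeq table of assembly R64. limma 3.58.1 (R 4.3.3) was run across all probe sets with a mean for each group over the 6 arrays (3 residual degrees of freedom) and a variance trend, with Benjamini-Hochberg adjustment and a threshold of 0.05; the lone 10 µg/ml array was assumed to vary like the rest. The number of arrays limits the precision. The fit was tested on simulated data with independent noise and changes larger than those of the members. That run does not show how well changes of the members' size would be found on these arrays.

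Pair differences use the control of the same array label. Over all tested probe sets, the A100 to B100 difference of treated arrays had r = -0.071 with that of controls. Deviations from the group means, with both treated groups taken as 1, correlated within a label at r = 0.071 for A100, 0.458 for B100 and 0.666 for 10. The 2 arrays named 10 correlated at 0.970 with each other and at most at 0.919 with any other array. The 10 arrays are part of each mean, so their gap from the other arrays enters the B100 deviations too. The B100 value therefore cannot show a tie within B100. The treated B100 array correlated at 0.980 with the A100 control and at 0.979 with its own. The data thus tie the 10 pair but show no tie within A100 or B100, and the block was kept as an alternative. The members and the 10 related lists were chosen with earlier results of these data known. Of 96 listed genes 95 matched a probe set with 1 name, and 10 of these were under the filter. Where a gene has several probe sets, that with the highest mean stands for it in a list (DBF20, SCW10, MYO1, MFA1). Named are every member, up to 4 tested genes per list with the largest mean pair difference in size, and the 5 probe sets most correlated with each of 2 profiles; IQG1, the marker genes singled out and the genes under the filter were named after their values were seen. Alternatives covered normalization, pseudocount, filter, trend, threshold, controls, replicate block and leaving out each replicate.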

Additional observations from a re-analysis of the deposited data

Results flagged for a closer look

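For 4 members both 100 µg/ml arrays were below the control of their label while the 10 µg/ml array was above its own, a pattern found at 13.4% of all tested probe sets. The change at each dose was taken against the controls with the same labels. The change at 100 µg/ml minus that at 10 µg/ml was -1.20 (log2) for ASH1 (SE 0.654), -1.10 for PRY3 (SE 0.571), -0.88 for EGT2 (SE 0.581) and -0.49 for DSE2 (SE 0.442). This test of the difference was added after the data had been seen. In limma's fit none of the 4 passed (adjusted p = 0.966 for each), and 0% of all tested probe sets did. The 10 µg/ml side rests on 1 pair.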

How the results depend on the processing

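At the higher dose 0 probe sets passed the threshold in limma under every alternative run, leave-outs included (30 to 679 at an unadjusted p under 0.05). At the lower dose the count was 0 except without the control of the 10 pair, where it was 4, so the range without 1 replicate was 0 to 4. Without that control the 10 µg/ml array was set only against the A100 and B100 controls. The gap of the arrays named 10 from the others and an effect of the dose cannot be told apart in those 4. The array label as a replicate block left both counts at 0. Its pairing check was met by the 10 pair (r = 0.666) but not by A100 (r = 0.071). For B100 (r = 0.458) the check cannot decide, because the gap of the 10 arrays enters it. No member passed under any alternative (lowest adjusted p = 0.357 at 100 µg/ml and 0.151 at 10 µg/ml). Signs changed 15 times, as follows. At 100 µg/ml, without the treated A100 array, DSE1 was at 0.0090 and DSE4 at 0.068, and leave-outs ranged from -1.12 to 0.0090 for DSE1 and from -0.32 to 0.068 for DSE4. At 10 µg/ml, against the control of the same label and equally with the replicate block, ASH1 was at 0.21, DSE2 at 0.034, EGT2 at 0.14, AMN1 at -0.058 and PRY3 at 0.063. This left 3 of 9 members negative in place of 6. ASH1 at 10 µg/ml was also at 0.096 after quantile normalization, at 0.032 without the A100 control and at 0.041 without the B100 control, with leave-outs from -0.14 to 0.041. Its value over all controls was -0.023. The cause of these changes of sign was not tested. The members' median at 100 µg/ml lay between -0.52 and -0.086 over the alternatives. Depth cannot be read from array signals, and low signals lie near the added 16.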
